A study of Mus musculus with 19 samples.

Results

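The comparison described here set 2 female iPSC clones of the NOD/ShiLtJ strain, derived and kept in 2iS medium, against 4 iPSC clones of the 129S1/SvImJ strain, derived and kept in standard ESC/LIF medium. These 6 libraries were chosen by the titles of the samples from the 19 RNA-seq libraries of the series, which also held iPSC of WSB/EiJ mice, ESC and EpiSC. Strain and medium changed together between the 2 groups, so neither can be told apart from the other within these 6 libraries. The 2 male NOD/ShiLtJ clones were left out. The authors also set them aside, citing the tendency of such clones to lose Chromosome Y and their distinct transcriptional profiles. In these 2 clones 5.59% and 5.62% of the uniquely aligned read pairs lay on genes, against 1.41% to 1.56% here.

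iPSC are induced pluripotent stem cells, made from mouse embryonic fibroblasts (MEF) with a lentivirus that carried Oct4, Klf4, Sox2 and Myc. These ectopic factors were not removed from any clone, so a count on one of the 4 genes can also hold reads of the virus. The NOD/ShiLtJ clones were numbers 7 (passage 17) and 52 (passage 18). The 129S1/SvImJ clones were numbers 1 (passage 21, male), 5 (passage 19, female), 8 (passage 17, female) and 17 (passage 20, male). ESC/LIF medium holds serum and leukemia inhibitory factor, and 2iS adds inhibitors of MEK and GSK3B to it. Each library was 1 clone, depleted of feeder MEF before harvest, and the p-values measure the spread between such clones. Groups follow the titles, since source names and characteristics name another condition for every one of these libraries. The titles' sexes were contradicted by the counts of 4 Y-linked genes (Uty, Kdm5d, Eif2s3y and Ddx3y) in 0 of these 6 libraries.

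Mouse strains differ in how readily they give naive pluripotent cells, and NOD mice are a classic strain from which ESC are hard to obtain in serum and LIF alone. LIF sustains self-renewal through STAT3, while signals through MEK and ERK drive cells toward differentiation. Blocking MEK, and blocking GSK3B so that beta-catenin is spared, holds naive cells in self-renewal.

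Gene counts per library ranged from 92996 (129S1/SvImJ clone 17) to 226794 (129S1/SvImJ clone 1) read pairs, so 3 counts stood for 12.9 to 32.4 CPM, the unit of level used here (counts scaled to equal library sizes by TMM). Genes that share exon bases with a gene on the opposite strand took 62.6% to 65.7% of these counts, although they are 24.6% of the annotated genes. Where a gene below has such a partner it is named, because its counts may be reads of that partner. The libraries were stranded, but the strand setting of the counting is not given. Some abundant genes had almost no counts (over the 6 libraries 14 for Gapdh and 3 for Eno1, both of glycolysis). A printed level may therefore not be that of the gene's own sense transcript. All strains were aligned to the same GRCm38 assembly, so 0 counts in a strain do not show that the gene was silent. Whether strain differences in sequence lowered any count was not tested. The 10 pluripotency markers were detected in both groups, with a summed level of 2080 to 2390 CPM in NOD/ShiLtJ and 2410 to 2620 CPM in 129S1/SvImJ clones. Markers of trophoblast (2 of 2) and of primitive endoderm (5 of 6) were at 0 counts in all 6 libraries, and so were 15 of 28 fibroblast markers. The summed fibroblast markers stood at 979 to 1080 CPM in NOD/ShiLtJ and 447 to 585 CPM in 129S1/SvImJ clones. Without Fn1 the other 27 markers summed to 170 to 172 CPM and 142 to 222 CPM, which overlap.

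Of 3183 autosomal genes tested, 239 (7.51%) differed between the groups at a Benjamini-Hochberg adjusted p under 0.05 in edgeR's quasi-likelihood test, which gave all adjusted p-values below unless another test is named. The level was higher in NOD/ShiLtJ clones for 136 genes (4.27%) and lower for 103 (3.24%). In 237 of the 239 (7.45% of those tested) every clone of one strain lay above every clone of the other, a separation that 29.5% of all tested genes showed, 14.3% with NOD/ShiLtJ higher and 15.2% with it lower. The median fitted log2 fold change was 0.007 over all tested genes, and its median absolute value was 1.81 over the genes that differed. The count rested on both NOD/ShiLtJ clones: it was 133 without clone 7 and 123 without clone 52. DESeq2's Wald test gave 140 of the 3183 genes, 80 higher and 60 lower. In edgeR 648 of the 3183 had an unadjusted p under 0.05. Counts of these 2 kinds for the gene lists below are to be read beside these totals. Genes with opposite-strand exons made up 51% of those that differed and 50.4% of those tested. By direction they were 45.6% of the higher and 58.3% of the lower genes.

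**Figure D1:**
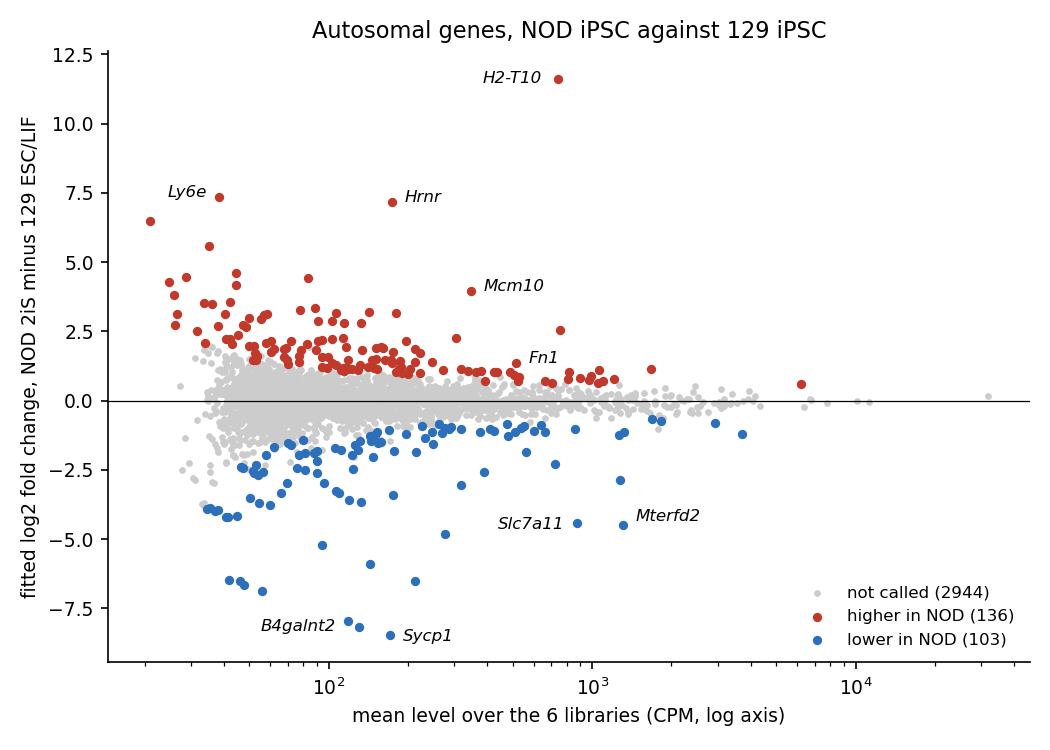
Fitted log2 fold change (NOD/ShiLtJ in 2iS minus 129S1/SvImJ in ESC/LIF) against the mean level over the 6 libraries in CPM on a log axis, 1 point per autosomal gene tested. Red points are the 136 genes higher and blue points the 103 genes lower in NOD/ShiLtJ clones. H2-T10 stands highest, and Sycp1 and B4galnt2 are among the lowest, but fitted values of genes with a group at 0 counts depend on the small count that edgeR adds.

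The highest point of that plot was a class I histocompatibility gene, H2-T10 (ENSMUSG00000079491.9, Chromosome 17, 36115876 to 36121465, minus strand, GRCm38), annotated as a polymorphic pseudogene. Its level was 2360 and 2100 CPM in NOD/ShiLtJ clones 7 and 52, from 459 and 354 counts, and it had 0 counts in all 4 129S1/SvImJ clones. The level in NOD/ShiLtJ clones was therefore at least 508-fold higher, against a floor of 3 counts over the group (adjusted p = 1.27e-10). Its exons overlap those of BC023719 on the other strand. H2-T24, a class I gene nearby on Chromosome 17 without such a partner, was at 185 and 208 CPM in NOD/ShiLtJ clones. It was at 34.4, 33.9, 4.83 and 0 CPM in 129S1/SvImJ clones 1, 5, 8 and 17, so the groups did not overlap (log2 fold change 3.26 ± 0.47 SE, adjusted p = 2e-04). Of a 25-gene list of class I and antigen processing genes 4 were tested, and these 2 were higher, beside 4.27% of all tested genes. In edgeR 0 were lower, beside 3.24% of all tested genes (1 at an unadjusted p under 0.05, 0 in DESeq2). Reads can be shared among the closely related class I genes.

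Ly6e, a GPI-anchored surface protein that interferon induces, stood at 118 and 113 CPM in NOD/ShiLtJ clones and at 0 counts in every 129S1/SvImJ clone in ESC/LIF. That is at least 26.2-fold higher in NOD/ShiLtJ clones (adjusted p = 0.000157). It was 1 of only 2 tested genes of a 28-gene interferon list, 11 members of which had 0 counts in all 6 libraries.

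Hrnr, which encodes hornerin of the cornified skin layer, had 128 and 62 counts (659 and 368 CPM) in NOD/ShiLtJ clones. It had 2 counts in 129S1/SvImJ clone 5 and 0 in the other three. The ratio was 178, with a 95% counting interval of 48.6 to 1480 (adjusted p = 1.13e-07). The same gene was at 139, 87.8, 58 and 152 CPM in WSB/EiJ clones 12, 23, 25 and 28, between both groups.

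Mcm10, which helps to load the replication machinery at origins, was at 1020 and 842 CPM in NOD/ShiLtJ clones. In 129S1/SvImJ clones 1, 5, 8 and 17 it was at 64.5, 67.8, 82.1 and 0 CPM, so both NOD/ShiLtJ clones were far above all of them (log2 fold change 3.97 ± 0.33 SE, adjusted p = 3.22e-07). The level in the 4 WSB/EiJ clones ranged from 78.1 to 129 CPM. Ccnyl1, a cyclin Y relative whose exons overlap 2810408I11Rik, was at 175 and 285 CPM in NOD/ShiLtJ clones and at 4.3, 6.78, 19.3 and 10.8 CPM in 129S1/SvImJ clones. Its groups did not overlap (log2 fold change 4.42 ± 0.45 SE, or 5.04 without 129S1/SvImJ clone 8, adjusted p = 4.27e-06), and WSB/EiJ clones spanned 93 to 174 CPM. Frem2, an extracellular matrix protein of basement membranes, was at 134 and 101 CPM against 4.3, 6.78, 0 and 21.6 CPM. Its log2 fold change was 4.18 ± 0.64 SE (adjusted p = 0.000362, and 0.0553 without NOD/ShiLtJ clone 7), and 4.88 without 129S1/SvImJ clone 17.

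The other genes among the 12 largest differences in this direction were low in number of counts. Trim66, a tripartite motif protein, had 13 and 10 counts in NOD/ShiLtJ clones and 0 in every 129S1/SvImJ clone, at least 14.4-fold higher. Ipp, a kelch-repeat protein, had 17 and 20 counts against 1, 0, 0 and 0, a ratio of 69.3 with a 95% counting interval of 11.7 to 2810. Gm14403 and Gm14420 lie near each other on Chromosome 2 in a family of near-identical zinc finger genes, so their ratios of 28.1 (interval 9.02 to 141) and 26.2 (interval 6.61 to 227) are uncertain. Neurl2 (with Ctsa) and Adam19 (with Gm16033 and Gm16034) share exon bases with genes on the opposite strand, and both had adjusted p over 0.05 without NOD/ShiLtJ clone 7 (0.0624 and 0.0751). Ctsa, a lysosomal protease that overlaps Pltp as well as Neurl2, was itself higher, by a log2 fold change of 1.12 ± 0.18 SE (adjusted p = 0.000515).

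In the other direction Slc7a11 was the clearest gene without an opposite-strand partner. It encodes the light chain of the cystine and glutamate antiporter, which supplies cystine for glutathione, and it lies on Chromosome 3 from 49892526 to 50443614 on the minus strand. Its level was 56.6 and 59.3 CPM in NOD/ShiLtJ clones and 1090, 1630, 1180 and 1240 CPM in 129S1/SvImJ clones 1, 5, 8 and 17. The lowest 129S1/SvImJ clone was thus well above both NOD/ShiLtJ clones (log2 fold change -4.41 ± 0.28 SE, adjusted p = 1.59e-08). The same 129S1/SvImJ clones 1 and 17 in 2iS stayed at 946 and 1060 CPM, and the WSB/EiJ clones were at 0, 9.76, 0 and 8.46 CPM. Slc7a11 is a known target of ATF4, a factor that binds amino acid response elements, so its promoter is shown. The 300 bases around the start (RefSeq sequence of GRCm38.p6, chr3:50443564-50443863, minus strand, written 5′ to 3′) hold this element on each strand, both in capitals:
Slc7a11 promoter: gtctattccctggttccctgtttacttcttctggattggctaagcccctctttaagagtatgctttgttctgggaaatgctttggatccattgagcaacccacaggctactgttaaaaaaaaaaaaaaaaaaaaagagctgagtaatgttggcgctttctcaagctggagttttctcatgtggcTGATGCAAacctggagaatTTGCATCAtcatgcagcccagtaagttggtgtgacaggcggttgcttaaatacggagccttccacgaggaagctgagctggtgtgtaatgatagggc

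The letters searched were TGATGCAA on either strand, which 294 of 32851 promoters of this length (0.895%) hold, and the antioxidant response core TGACNNNGC, which 12.4% hold and this window does not. The sequence is that of the reference strain, and nothing here measured it in NOD/ShiLtJ, 129S1/SvImJ or WSB/EiJ cells.

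Sycp1, a component of the synaptonemal complex that pairs chromosomes in meiosis, had 0 counts in both NOD/ShiLtJ clones. In 129S1/SvImJ clones it was at 185, 149, 348 and 345 CPM, and NOD/ShiLtJ clones were at least 30.1-fold lower (adjusted p = 2.77e-05). In 2iS, at passages 31 and 30, the 129S1/SvImJ clones 1 and 17 were at 49.4 and 78 CPM. The log2 fold change from ESC/LIF was -1.96 (adjusted p = 0.0223), and medium and passage cannot be told apart there. Of 18 autosomal genes of a germline list found in the counts, only Sycp1 had enough counts to be tested. B4galnt2, a glycosyltransferase that adds N-acetylgalactosamine to sialylated glycans and overlaps Gm11534, also had 0 counts in NOD/ShiLtJ clones and was at 310, 81.3, 72.4 and 248 CPM in 129S1/SvImJ clones. This is at least 21.7-fold lower in NOD/ShiLtJ (adjusted p = 0.000911), or 13.5-fold without 129S1/SvImJ clone 1. In 2iS the 129S1/SvImJ clones held B4galnt2 at 189 and 170 CPM, and 3 of 4 WSB/EiJ clones were at 0. Abcb1a, a multidrug efflux pump overlapping Gm42686, had 0 and 1 counts in NOD/ShiLtJ clones and 57, 27, 41 and 21 in 129S1/SvImJ clones. The ratio of 129S1/SvImJ to NOD/ShiLtJ was 77.9, with a 95% counting interval of 13.8 to 3100, and levels in 2iS were 148 and 121 CPM. Kbtbd11 (overlapping Gm37844) and the pseudogene Gm10012 were likewise at 0 counts in NOD/ShiLtJ clones, at least 7.83-fold and 10.3-fold lower. Rpl21, a ribosomal protein of the large subunit with many processed copies in the genome, had 1 and 0 counts against 19, 8, 17 and 2. The ratio of 129S1/SvImJ to NOD/ShiLtJ was 24.6, with a 95% counting interval of 4.19 to 991 (adjusted p = 0.00912, and 0.0563 without NOD/ShiLtJ clone 52).

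**Figure D2:**
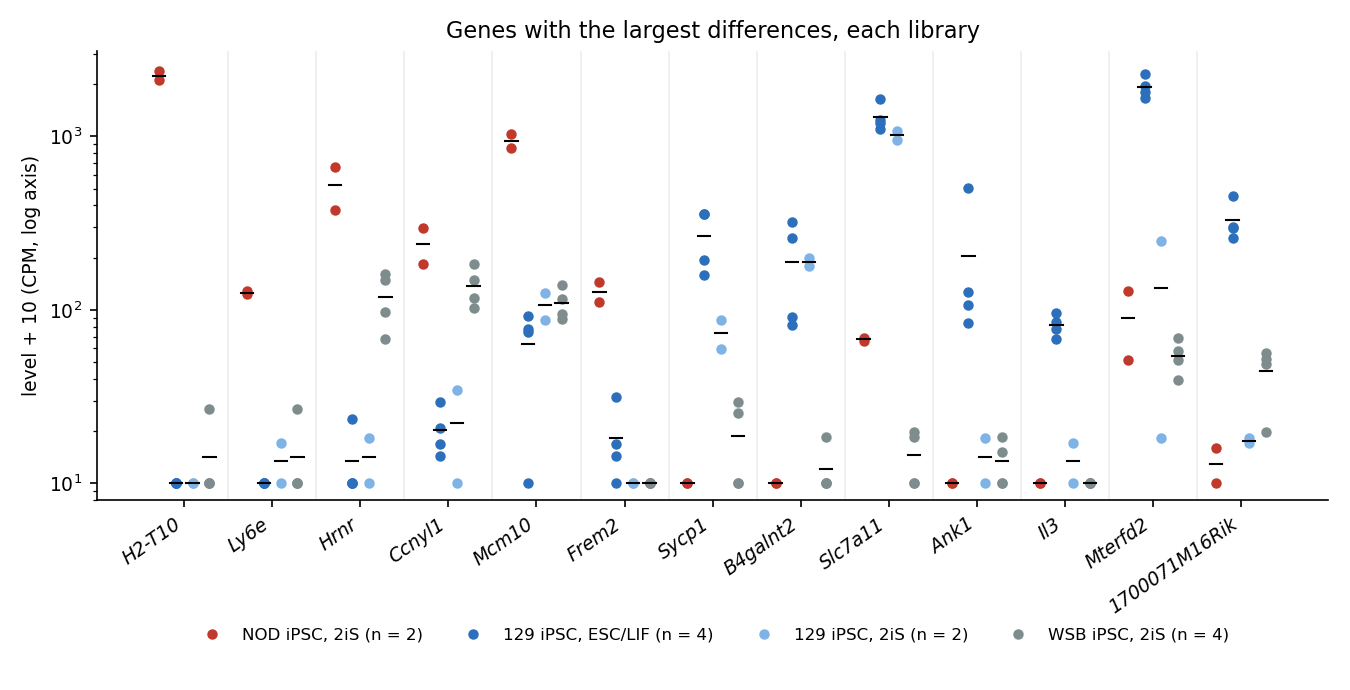
Level in each library for 13 genes with large differences, as CPM + 10 on a log axis. Points are clones, black bars the mean of each group, and groups are NOD/ShiLtJ in 2iS, 129S1/SvImJ in ESC/LIF, 129S1/SvImJ in 2iS and WSB/EiJ in 2iS. For Slc7a11 and B4galnt2 both media of 129S1/SvImJ lie together, while for Ank1, Il3, Mterfd2 and 1700071M16Rik the 129S1/SvImJ clones in 2iS lie near the NOD/ShiLtJ clones.

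To set strain and medium side by side, 12 iPSC libraries were fitted together, with 129S1/SvImJ clones 1 and 17 after transfer to 2iS (passages 31 and 30) and 4 WSB/EiJ clones in 2iS. These comparisons share libraries with the main one, so their counts are not independent of it. WSB/EiJ clones 12 and 25 were male at passage 16, clone 23 was female at passage 16 and clone 28 female at passage 20. Both NOD/ShiLtJ clones were female, and both 129S1/SvImJ clones in 2iS were male and at later passages. Strain, sex and passage therefore cannot be told apart between them. The 129S1/SvImJ clones in ESC/LIF were at passages 17 to 21 and of both sexes. What is called a change with medium here and below thus cannot be told apart from a change with passage. In 2iS on both sides, NOD/ShiLtJ and 129S1/SvImJ clones differed in 74 of 3243 autosomal genes (2.28%), 50 higher (1.54%) and 24 lower (0.74%) in NOD/ShiLtJ, and in 28 to 38 genes when any 1 of the 4 libraries was left out. The 129S1/SvImJ clones in 2iS and in ESC/LIF differed in 83 genes (2.56%), 23 higher (0.709%) and 60 lower (1.85%) in 2iS, but in 23 and 40 genes without clone 1 or clone 17 in 2iS. NOD/ShiLtJ and WSB/EiJ clones, all in 2iS, differed in 89 genes (2.74%), 51 higher (1.57%) and 38 lower (1.17%) in NOD/ShiLtJ, and in 48 and 45 genes without NOD/ShiLtJ clone 7 or 52.

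For H2-T10, Hrnr, Mcm10, Ccnyl1 and Slc7a11 the difference was also present with 129S1/SvImJ in 2iS. H2-T10 was at 0 counts in 129S1/SvImJ clones in 2iS too (adjusted p = 6.22e-09 for NOD/ShiLtJ minus 129S1/SvImJ in 2iS). For Hrnr that log2 fold change was 6.8 (adjusted p = 5.74e-06), and for Mcm10 it was 3.28 (adjusted p = 2.55e-05). For Slc7a11 it was -4.09 (adjusted p = 2.82e-08), while the change of Slc7a11 with medium in 129S1/SvImJ was -0.35 (adjusted p = 0.562).

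Other genes low in NOD/ShiLtJ clones were also low in 129S1/SvImJ clones after transfer to 2iS. Mterfd2, a mitochondrial transcription termination factor relative whose exons overlap Sned1, was at 118 and 41.5 CPM in NOD/ShiLtJ and at 1790, 1950, 1660 and 2280 CPM in 129S1/SvImJ clones in ESC/LIF (log2 fold change -4.49 ± 0.31 SE, or -5.47 without NOD/ShiLtJ clone 7, adjusted p = 2.85e-08). In 2iS the 129S1/SvImJ clones 1 and 17 held 8.23 and 241 CPM, a log2 fold change of -3.86 with medium (adjusted p = 1.1e-05). The antisense gene 1700071M16Rik, opposite the phospholipase gene Pla2g7, was at 0 and 5.93 CPM in NOD/ShiLtJ and at 288, 291, 444 and 248 CPM in ESC/LIF. In 2iS it was at 8.23 and 7.09 CPM in 129S1/SvImJ clones (log2 fold change with medium -5.26, adjusted p = 6.79e-06). Both genes thus had their high values in the 4 libraries in ESC/LIF only, among the 8 NOD/ShiLtJ and 129S1/SvImJ iPSC libraries. The 129 EpiSC library was also high, at 2340 CPM for Mterfd2 and 721 CPM for 1700071M16Rik, beside 84.4 and 94.4 CPM in NOD/ShiLtJ EpiSC.

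Ank1, the ankyrin of the erythrocyte membrane skeleton, which overlaps Gm15816, had 0 counts in NOD/ShiLtJ clones and 491, 74.6, 116 and 97.1 CPM in ESC/LIF, at least 28.1-fold lower (adjusted p = 0.0024). Clone 1 held 114 of the 158 counts, and without it the bound was 11.9-fold (adjusted p = 0.000454). It was at 8.23 and 0 CPM in 129S1/SvImJ clones in 2iS (adjusted p = 0.00639 for medium). The collagen gene Col6a4, overlapping Gm47575 and Gm36993, was at 0 and 5.93 CPM against 159, 142, 43.5 and 216 CPM, and at 8.23 and 0 CPM in 129S1/SvImJ in 2iS (adjusted p = 0.0114 for medium). Il3, the cytokine interleukin-3, had 0 counts in NOD/ShiLtJ clones and stood at 57.9 to 86.1 CPM in ESC/LIF, and its test for medium missed the threshold (adjusted p = 0.0515). Zfp423, a zinc finger factor that interacts with SMADs, had 0 counts against 51.6 to 97.1 CPM, at least 7.83-fold lower, and was not among the genes tested with 12 libraries. E130003G02Rik, antisense to Grin1, was not low in 129S1/SvImJ clones in 2iS, since it was at 10.3 and 17.8 CPM in NOD/ShiLtJ, 97.1 to 705 CPM in ESC/LIF and 305 and 177 CPM in 129S1/SvImJ in 2iS.

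Of a 24-gene naive pluripotency list 18 were tested. In NOD/ShiLtJ 1 was higher and 0 were lower, beside 4.27% and 3.24% of all tested genes. The median log2 fold change was -0.02, beside 0.007 for all genes. At an unadjusted p under 0.05 in edgeR 3 were higher and 2 lower, beside 648 of all 3183 tested genes in either direction. DESeq2 gave 0 in either direction. The 7 tested core factors gave 0 calls in edgeR, beside 7.51% of all tested genes, and 0 in DESeq2. Their median was -0.06, and at an unadjusted p under 0.05 in edgeR there was 1. That 1 was Pou5f1, which encodes Oct4, overlaps Gm19553 and was on the virus, at 391 and 457 CPM against 585, 624, 666 and 626 CPM (log2 fold change -0.52 ± 0.2 SE, adjusted p = 0.122). Klf4, a naive factor and a reprogramming factor, was at 293 and 166 CPM in NOD/ShiLtJ and at 164, 217, 343 and 119 CPM in 129S1/SvImJ clones, which overlap (log2 fold change 0.13 ± 0.34 SE, adjusted p = 0.886). Its sign turned without NOD/ShiLtJ clone 7, without 129S1/SvImJ clone 1 or 17, with female 129S1/SvImJ clones alone and with sex as a covariate. Zfp42, also called Rex1, was at 345 and 320 CPM against 386 to 503 CPM (log2 fold change -0.35 ± 0.21 SE, adjusted p = 0.375). Esrrb, an orphan nuclear receptor of the naive network, was at 216 and 148 CPM against 228 to 333 CPM (log2 fold change -0.56 ± 0.27 SE, adjusted p = 0.242).

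Nanog, the homeobox factor of the pluripotency network, was at 82.4 and 148 CPM in NOD/ShiLtJ and at 55.9, 61, 38.6 and 32.4 CPM in 129S1/SvImJ clones. These did not overlap, but the test just missed the threshold (log2 fold change 1.27 ± 0.38 SE, adjusted p = 0.0522). The adjusted p was 0.0451 without NOD/ShiLtJ clone 7 and 0.0393 in the fit of 12 libraries, but 0.538 without clone 52 (log2 fold change 0.8) and 0.263 in DESeq2. Without 129S1/SvImJ clone 1, 5, 8 or 17 it was 0.0641, 0.0672, 0.119 and 0.0973. The gene of the naive list that differed was Jam2, a junctional adhesion molecule, at 201 and 160 CPM against 77.5, 88.1, 96.6 and 54 CPM. Its log2 fold change of 1.18 ± 0.3 SE (adjusted p = 0.0207) missed the threshold when either NOD/ShiLtJ clone was left out (0.247 without clone 7, 0.0628 without clone 52), without 129S1/SvImJ clone 17 (0.0509), and with sex as a covariate (0.0727).

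Of 26 genes of primed and early lineage cells only 2 had enough counts to be tested. One of them, Lefty2, an inhibitor of Nodal signals, was at 185 and 243 CPM in NOD/ShiLtJ clones and at 47.3, 13.6, 62.8 and 64.7 CPM in 129S1/SvImJ clones. The groups did not overlap (log2 fold change 2.21 ± 0.37 SE, adjusted p = 0.000904), and the 129S1/SvImJ clones in 2iS were at 32.9 and 85.1 CPM. The range over the WSB/EiJ clones, 59.2 to 244 CPM, covered much of the distance between the groups.

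The genes that ERK signals raise were sparse in counts, and 7 of 27 were tested. Of these 1 was lower and 0 were higher, beside 3.24% and 4.27% of all tested genes, with a median log2 fold change of -0.73. At an unadjusted p under 0.05 in edgeR 3 were lower and 0 higher, beside 648 of all 3183 tested genes in either direction. DESeq2 gave 0 in either direction, beside 140 of all 3183. Their summed level was 623 to 788 CPM in NOD/ShiLtJ clones and 1020 to 1190 CPM in 129S1/SvImJ clones in ESC/LIF. It was 646 to 749 CPM in 129S1/SvImJ clones in 2iS and 829 to 1150 CPM in WSB/EiJ clones in 2iS. The gene that differed was Myc, a growth regulator that was also on the virus, at 97.8 and 94.9 CPM against 254, 197, 179 and 194 CPM (log2 fold change -1.06 ± 0.3 SE, adjusted p = 0.0359). Its adjusted p lay above the threshold without NOD/ShiLtJ clone 7 (0.205) or 52 (0.231), without 129S1/SvImJ clone 1 (0.077) or 17 (0.0509), in DESeq2 (0.149) and in the fit of 12 libraries (0.0754).

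Spry4, a feedback inhibitor of ERK signals, was at 10.3 and 11.9 CPM in NOD/ShiLtJ clones, from 2 counts each, and at 86.1, 88.1, 14.5 and 86.3 CPM in 129S1/SvImJ clones. Clone 8 was near the NOD/ShiLtJ clones, and the log2 fold change of -2.46 ± 0.79 SE had an adjusted p of 0.0665. It was 0.00676 without clone 8 and 0.00908 with no filter, but 0.261 and 0.186 without NOD/ShiLtJ clone 7 or 52, 0.1 to 0.14 without 129S1/SvImJ clone 1, 5 or 17, and 0.125 in DESeq2. Dusp6, a phosphatase of ERK, had 5 and 1 counts against 4 to 7 and was too low to be tested.

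The Wnt list had 4 of 27 genes tested and the LIF/STAT3 list 7 of 18, at medians of 0.33 and 0.07. Each had 0 calls in edgeR, beside 7.51% of all tested genes, and 0 in DESeq2. At an unadjusted p under 0.05 there were 0 genes of the Wnt list and 1 of the LIF/STAT3 list. The Wnt target Axin2 was not tested, with 7 and 8 counts in NOD/ShiLtJ clones (36 and 47.4 CPM) and 2, 2, 3 and 2 in 129S1/SvImJ clones (8.61 to 21.6 CPM). Lef1, Id1 and Id3 were not tested either. None of 17 autosomal BMP and Id genes found in the counts had enough counts to be tested. The same held for 21 autosomal genes of the two-cell-like state.

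Chromatin lists showed single members. The 7 tested core and accessory genes of Polycomb repressive complex 2, which methylates histone H3 at lysine 27, had a median of -0.07. Of these, 1 was higher and 1 lower, beside 4.27% and 3.24% of all tested genes. Suz12, a core subunit overlapping Gm26563, was at 293 and 374 CPM in NOD/ShiLtJ and at 90.4, 108, 126 and 64.7 CPM in 129S1/SvImJ clones, with no overlap (log2 fold change 1.76 ± 0.28 SE, adjusted p = 0.000432). In 2iS the 129S1/SvImJ clones held Suz12 at 230 and 114 CPM (NOD/ShiLtJ minus 129S1/SvImJ in 2iS 0.98, adjusted p = 0.189). The WSB/EiJ clones held it at 211 to 325 CPM. Jarid2, an accessory subunit that helps to recruit the complex, was at 211 and 196 CPM against 349, 420, 589 and 486 CPM. It was lower by -1.13 ± 0.26 SE on the log2 scale (adjusted p = 0.00963), and missed the threshold without NOD/ShiLtJ clone 7 (0.0651) or 52 (0.0888). In 129S1/SvImJ clones in 2iS Jarid2 was at 74.1 and 184 CPM, a change with medium of -1.79 (adjusted p = 0.00338). The 10 tested DNA methylation genes gave 0 calls in edgeR, beside 7.51% of all tested genes, and 0 in DESeq2. At an unadjusted p under 0.05 in edgeR there was 1, and the median was -0.21.

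**Figure D3:**
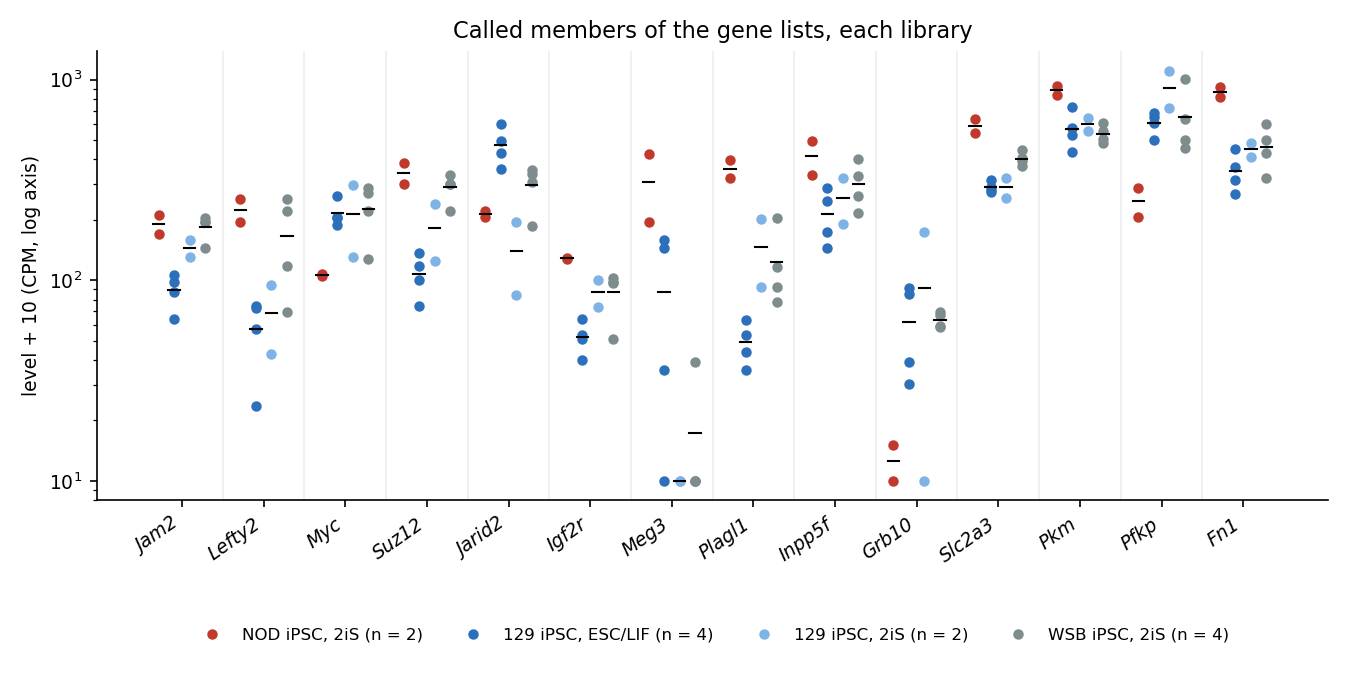
Level in each library of 14 genes from the lists that differed between NOD/ShiLtJ in 2iS and 129S1/SvImJ in ESC/LIF, as CPM + 10 on a log axis. Points are clones and black bars group means. For each gene the 2 NOD/ShiLtJ clones lie outside the range of the 4 129S1/SvImJ clones in ESC/LIF, while for several, such as Jam2 and Suz12, clones in 2iS of the other strains lie in between or beside them.

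Of 45 listed imprinted genes found in the counts, which can be expressed from 1 parental copy, 17 were tested. Of these, 4 were higher and 1 was lower, beside 4.27% and 3.24% of all tested genes, with a median of 0.1. Expression by parental copy was not measured. At an unadjusted p under 0.05 in edgeR 6 were higher and 3 lower, beside 648 of all 3183 tested genes in either direction. DESeq2 gave 1 higher and 0 lower, beside 80 and 60 of all 3183. The summed level of the list was 2840 to 3630 CPM in NOD/ShiLtJ and 1680 to 2770 CPM in 129S1/SvImJ clones. Plagl1, a zinc finger factor that overlaps Gm27741, was at 314 and 386 CPM in NOD/ShiLtJ and at 25.8, 33.9, 53.1 and 43.2 CPM in 129S1/SvImJ clones. The groups lay far apart (log2 fold change 3.2 ± 0.32 SE, adjusted p = 3.97e-06). In 2iS the 129S1/SvImJ clones were at 82.3 and 192 CPM, higher than in ESC/LIF by 1.84 on the log2 scale (adjusted p = 0.0241).

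Igf2r, the receptor that clears IGF2, was at 118 and 119 CPM against 30.1, 40.7, 43.5 and 54 CPM. It stood at 90.5 and 63.8 CPM in 129S1/SvImJ clones in 2iS and at 41.2 to 93 CPM in WSB/EiJ clones. Its log2 fold change was 1.58 ± 0.37 SE (adjusted p = 0.0106, but 0.105 and 0.0774 without NOD/ShiLtJ clone 7 or 52, and 0.108 in DESeq2). The long noncoding RNA Meg3 of the Dlk1-Dio3 cluster, overlapping Gm26906, varied among the clones of each strain. It was at 185 and 415 CPM in NOD/ShiLtJ clones and at 25.8, 149, 135 and 0 CPM in 129S1/SvImJ clones, with 0 counts in both 129S1/SvImJ clones in 2iS. Its log2 fold change of 1.89 ± 0.53 SE (adjusted p = 0.0359) lost the call without NOD/ShiLtJ clone 52 (0.354), without 129S1/SvImJ clone 1 (0.0772) or 17 (0.0509) and in DESeq2 (0.659). Inpp5f, an inositol phosphatase, was at 484 and 326 CPM against 135 to 278 CPM (log2 fold change 1.09 ± 0.27 SE, adjusted p = 0.0186, and 0.328 without NOD/ShiLtJ clone 7 or 0.0552 without 129S1/SvImJ clone 8). Grb10, an adaptor that restrains insulin and IGF signals, had 1 and 0 counts against 19, 3, 6 and 7. The ratio of 129S1/SvImJ to NOD/ShiLtJ was 18.7 with a 95% counting interval of 3.14 to 759 (adjusted p = 0.0425), and the call was lost without NOD/ShiLtJ clone 7 (0.117) or 52 (0.201).

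Of 20 glycolysis genes 13 were tested, 2 were higher and 1 was lower, beside 4.27% and 3.24% of all tested genes, with a median of -0.33, and DESeq2 gave 1 higher and 1 lower. Slc2a3, the glucose transporter GLUT3, was at 530 and 623 CPM in NOD/ShiLtJ and at 271, 305, 266 and 281 CPM in 129S1/SvImJ clones. The groups were well apart (log2 fold change 1.08 ± 0.2 SE, adjusted p = 0.00205, and 0.0575 without NOD/ShiLtJ clone 52). Pkm, pyruvate kinase, was at 922 and 830 CPM against 426 to 723 CPM (log2 fold change 0.72 ± 0.21 SE, adjusted p = 0.0383). Its adjusted p was 0.0794 to 0.262 without NOD/ShiLtJ clone 7 or 52 or 129S1/SvImJ clone 1, 5 or 8. Pfkp, a phosphofructokinase that overlaps Pitrm1, was lower, at 196 and 279 CPM against 491, 671, 594 and 637 CPM. Its log2 fold change was -1.29 ± 0.23 SE (adjusted p = 0.00174, and 0.0567 without NOD/ShiLtJ clone 7).

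Fn1, fibronectin, which MEF secrete and pluripotent cells also express, overlaps Apol7d. Of 3 tested fibroblast markers it was the only 1 that differed, beside 7.51% of all tested genes. It was at 911 and 807 CPM in NOD/ShiLtJ clones and at 443, 258, 304 and 356 CPM in 129S1/SvImJ clones (log2 fold change 1.36 ± 0.22 SE, adjusted p = 0.000464). Whether MEF left in the cultures had a part in this was not tested.

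ESC and EpiSC lines of both strains gave values that share no library with the iPSC. The ESC came from NOD/ShiLtJ and 129S1/SvImJ mice and were both kept with serum, LIF, and inhibitors of MEK and GSK3B, while the 129 EpiSC line came from another 129 substrain. All 4 of these lines were male, while both NOD/ShiLtJ iPSC clones were female. Both ESC lines were at passage 6, the NOD/ShiLtJ EpiSC at passage 38 and the 129 EpiSC at passage 16. With 1 library per line there is no test. On the scale log2(CPM + 2), 106 of the 136 genes higher in NOD/ShiLtJ iPSC (77.9%) were also above in the NOD/ShiLtJ ESC, beside 51.9% of all tested genes with a fitted change above 0. Of the 103 lower genes, 68 (66%) were below in the NOD/ShiLtJ ESC, beside 50.8% of all with a fitted change below 0. In EpiSC the shares were 64 of 136 above (47.1%, beside 52.6%) and 75 of 103 below (72.8%, beside 52.2%).

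H2-T10 was at 1290 CPM in NOD/ShiLtJ ESC and 0 in 129S1/SvImJ ESC, and at 1950 and 35.3 CPM in the EpiSC lines. Hrnr was at 900 and 0 CPM in ESC and at 373 and 0 CPM in EpiSC. Slc7a11 was at 60.6 and 529 CPM in ESC and at 9.93 and 4900 CPM in EpiSC, lower in the NOD/ShiLtJ line of each. Mcm10 had the opposite order in ESC, with 26 CPM in the NOD/ShiLtJ and 108 CPM in the 129S1/SvImJ line, although its level in both NOD/ShiLtJ iPSC clones was high.

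**Figure D4:**
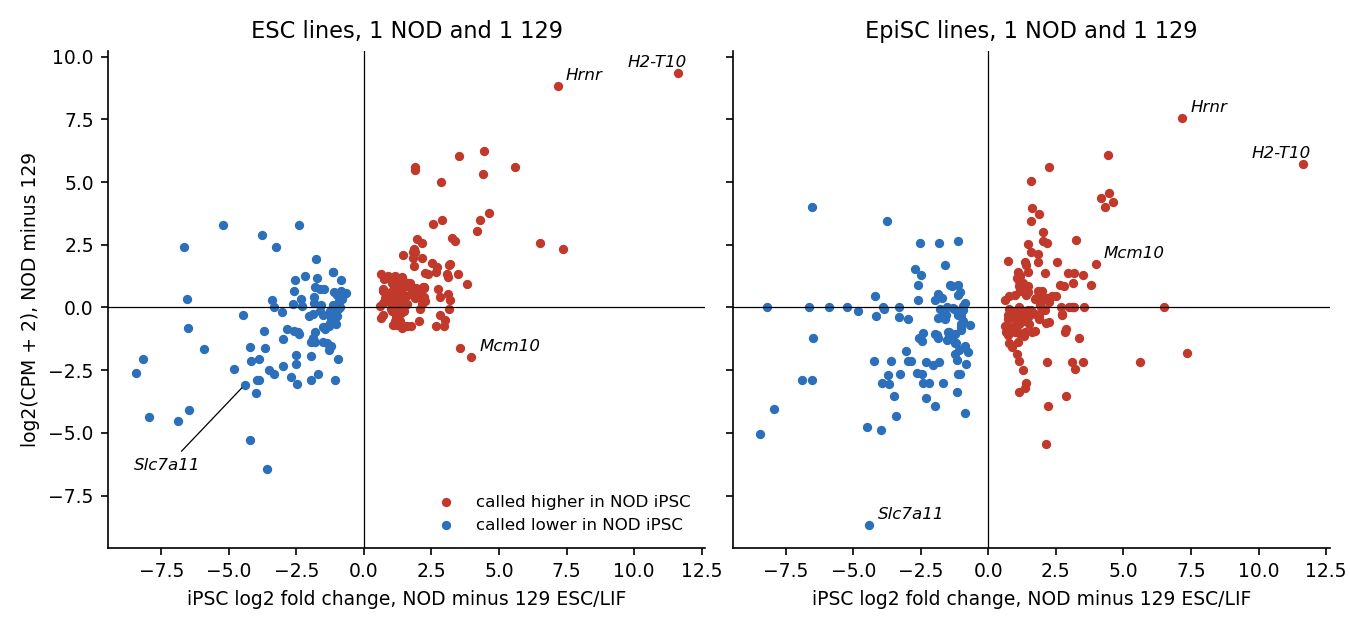
Difference between NOD and 129 lines in ESC (left) and EpiSC (right), on the scale log2(CPM + 2), against the fitted log2 fold change in iPSC, for the 239 genes that differed in iPSC. Each point is a gene and each vertical value rests on 1 library per strain. H2-T10 and Hrnr are far above 0 in both panels, Slc7a11 is below 0 in both, and Mcm10 is below 0 in ESC.

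The genes that differed were spread over all autosomes, with 5.85% (Chromosome 8) to 10.7% (Chromosome 14) of the tested genes of each. The median log2 fold change of all tested genes was 0.267 on Chromosome 6 (161 genes, 11 higher and 3 lower) and 0.143 on Chromosome 11 (320 genes, 12 higher and 9 lower). It lay between -0.124 and 0.077 on each other autosome. By clone, the median log2 ratio to the mean of the 129S1/SvImJ clones on Chromosome 6 was 0.24 in NOD/ShiLtJ clone 7 and 0.21 in clone 52. On Chromosome 11 it was -0.04 in clone 7 and 0.25 in clone 52. The 129S1/SvImJ clones, each against the other 3, ranged from -0.03 to 0.01 on Chromosome 6 and from -0.07 to 0.06 on Chromosome 11. In 2iS the 129S1/SvImJ clones 1 and 17 stood at 0.04 and 0.02 on Chromosome 6 and at -0.02 and -0.03 on Chromosome 11. The WSB/EiJ clones 12, 23, 25 and 28 stood at 0.39, 0.16, 0.15 and -0.02 on Chromosome 6 and at 0.4, 0.31, 0.4 and -0.09 on Chromosome 11. Slc2a3, Nanog and Bcat1 lie on Chromosome 6, and Suz12, Fasn and Adam19 on Chromosome 11. The part of these shifts in the differences of single genes was not tested. The paper counted chromosomes in spreads of the iPSC and describes the sequenced clones as chromosomally normal. Copy number was not tested here. A fit without both chromosomes gave 196 genes of 2702 tested, 111 higher and 85 lower.

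**Figure D5:**
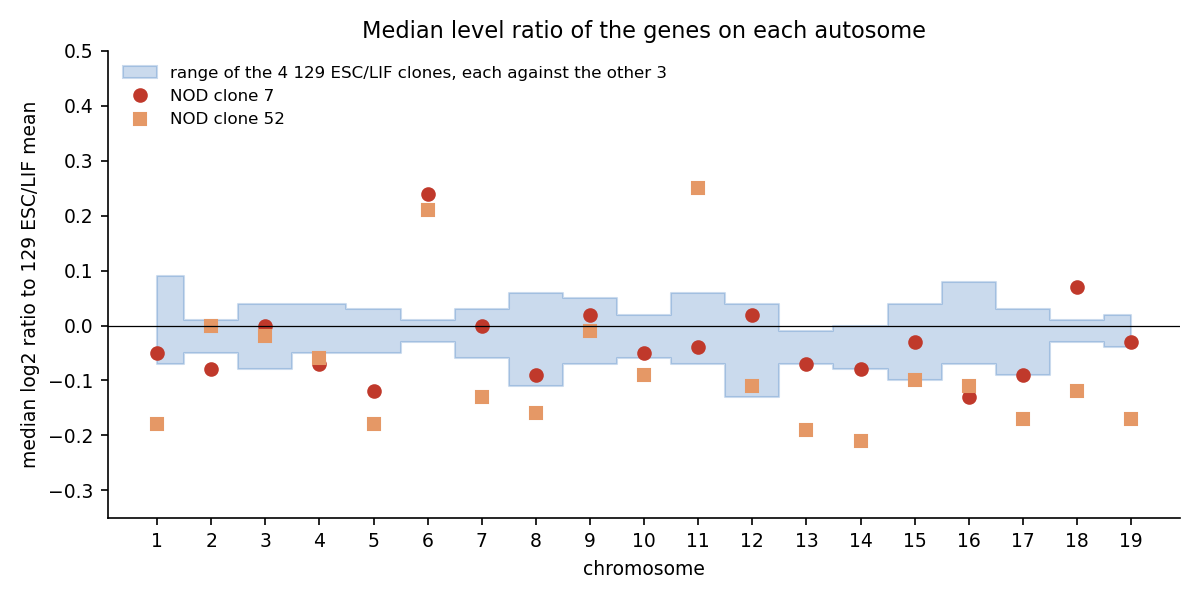
Median log2 ratio (CPM + 10) of the genes on each autosome for NOD/ShiLtJ clones 7 and 52 against the mean of the 129S1/SvImJ clones in ESC/LIF. The shaded band is the range of the 4 129S1/SvImJ clones, each against the mean of the other 3. Both NOD/ShiLtJ clones are far above the band on Chromosome 6 (0.24 and 0.21), clone 52 but not clone 7 is above it on Chromosome 11 (0.25), and clone 52 is below it on several others.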

How the data were processed

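The authors trimmed the stranded (TruSeq) paired reads with Trimmomatic, aligned them to GRCm38 with TopHat2 2.1.1 and assigned pairs to genes with HTSeq (intersection-nonempty). The strand setting is not given in the sources used here. The deposited values are raw counts of read pairs per gene for 23420 genes, not normalized. Positions and opposite-strand exons were taken from GENCODE M21 (GRCm38), which matched 98.4% of the genes, 1278 of them by an older symbol. Rows that name no gene were left out of library sizes, and genes held 1.41% to 1.56% of uniquely aligned pairs in the 6 libraries.

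Tests on the counts used edgeR 4.0.16 under R 4.3.3 (filterByExpr, TMM, glmQLFit and glmQLFTest), over all genes tested including 136 others than autosomal ones, at an adjusted p under 0.05. The main fit held the 6 libraries, with a biological coefficient of variation of 0.186. A fit of 12 iPSC in 4 groups gave the other contrasts. Levels in CPM use TMM factors over 17 libraries. Intervals and floors cover counting error only. DESeq2 1.42.0, other scalings and filters, sex, and left-out libraries were alternatives. Median chromosome ratios by clone used genes with a mean of at least 50 CPM.

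Genes named are for each direction the 12 that changed most on the log2 scale among those that differed without overlap, 6 in each direction without opposite-strand exons, list members that differed, and reference genes (Klf4, Zfp42, Esrrb, Nanog, Dusp6, Spry4, Axin2, Lef1, Id1, Id3). The genes compared and the lists were chosen with earlier results of these data known. Ctsa and Pou5f1 were named after their values were seen. The 129S1/SvImJ clones 1 and 17 occur in both media, so their numbers pair the libraries. Their deviations from the group means correlated at 0.0435 and 0.042 across media. On simulated data of the main comparison (3113 genes, 50 changed per fold size) 32% of genes changed 2-fold, 84% of those changed 4-fold and 92% of those changed 8-fold were recovered.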

Additional observations from a re-analysis of the deposited data

Results flagged for a closer look

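In 57 groups of 4 clones with at least 10 counts in a library, chance flags about 1 in 20, and 5 libraries stood apart from the others of their group. In 129S1/SvImJ clones in ESC/LIF these were Ank1 in clone 1, at 491 CPM beside 74.6 to 116 in the others, and Spry4 in clone 8, at 14.5 CPM beside 86.1 to 88.1. In WSB/EiJ clones they were Igf2r in clone 12, at 41.2 CPM beside 86.9 to 93, Klf4 in clone 28, at 321 CPM beside 193 to 211, and Spry4 in clone 12, at 72.2 CPM beside 8.46 to 19.3.

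NOD/ShiLtJ and WSB/EiJ clones in 2iS differed in edgeR's quasi-likelihood test for 13 of 43 named genes fitted. Higher in NOD/ShiLtJ, with fitted log2 differences, were H2-T10 (8.89), Frem2 (7.17), Meg3 (5.48), Ly6e (4.62), Slc7a11 (3.64), H2-T24 (3.26), Mcm10 (3.17), Ipp (3.05), Hrnr (2.17), Plagl1 (1.67) and Fn1 (0.91). Lower in NOD/ShiLtJ were 1700071M16Rik (-3.38) and Pfkp (-1.45). The values of H2-T10, Ly6e, Slc7a11 and Frem2 rest on WSB/EiJ groups with 0 to 2 counts and depend on the small count that edgeR adds. From the counts, the NOD/ShiLtJ to WSB/EiJ ratio of H2-T10 was 581 (95% counting interval 160 to 4800), that of Ly6e 30 (7.8 to 256) and that of Slc7a11 15 (3.67 to 132), and Frem2 was at least 20.5-fold higher.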

How the results depend on the processing

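For NOD/ShiLtJ minus 129S1/SvImJ in ESC/LIF, 239 genes differed. The count was 140 with DESeq2, 385 with no filter, 71 when each library had to hold 10 counts or more, 125 with genes without opposite-strand exons alone, 376 at an adjusted p under 0.1, and 123 to 230 with 1 library left out. Of the 140 genes of DESeq2, 140 were among the 239. For NOD/ShiLtJ minus 129S1/SvImJ in 2iS (74) the values were 35 with DESeq2, 16 with at least 10 counts, 39 without opposite-strand exons, 147 with the 4 libraries alone, and 28 to 38 with 1 library left out. For the medium of 129S1/SvImJ (83) they were 132 with no filter, 18 with at least 10 counts, 38 without opposite-strand exons and 23 to 83 with 1 library left out. For NOD/ShiLtJ minus WSB/EiJ (89) they were 178 with no filter, 27 with at least 10 counts, 49 without opposite-strand exons and 45 to 91 with 1 library left out. The other alternatives stayed within 1.5 times of each count. The fit without Chromosomes 6 and 11 was chosen after seeing the data. With the clone as a replicate block, pairing clones 1 and 17 across media, 81 genes differed with medium, 79 of them among the 83. No paired analysis was possible for the other comparisons because their groups share no clone.

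Klf4 turned sign, to -0.36 without NOD/ShiLtJ clone 7, -0.04 without 129S1/SvImJ clone 1 or 17, -0.26 with female 129S1/SvImJ clones alone and -0.25 with sex as a covariate, and ranged from -0.36 to 0.48 with 1 library left out. Over 46 named genes and these alternatives, no other named gene turned sign. Depth limits the low genes: 3 counts are 12.9 to 32.4 CPM, and most ERK, Wnt, BMP and primed genes could not be tested. Where a library was left out of a pair, the lone clone was assumed to vary like the other groups.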

Other observations

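Some further genes were chosen after their values were seen, so they stand for themselves and for no group. Npc1 and Npc2, which carry cholesterol out of the lysosome, were higher in NOD/ShiLtJ clones, Npc1 at 561 and 706 CPM against 108 to 194 CPM (log2 fold change 2.26 ± 0.24 SE, adjusted p = 6.7e-06) and Npc2 at 263 and 219 CPM against 32.4 to 67.8 CPM (2.26 ± 0.31 SE, adjusted p = 0.000127). Npc1 shares exon bases with Rmc1 and Gm15956. The desaturase Scd2 was at 237 and 308 CPM against 10.8 to 62.8 CPM (2.82 ± 0.36 SE, adjusted p = 7.17e-05), and 129S1/SvImJ clones in 2iS were at 189 and 184 CPM. The transferrin receptor Tfrc, which takes up iron, was at 314 and 285 CPM against 54 to 183 CPM (1.47 ± 0.32 SE, adjusted p = 0.00657), with 272 and 248 CPM in 129S1/SvImJ clones in 2iS.

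The mitochondrial and cytosolic aminotransferases of branched-chain amino acids, Bcat2 and Bcat1, were both higher, Bcat2 at 324 and 297 CPM against 75.5 to 102 CPM and Bcat1 at 417 and 433 CPM against 86.3 to 222 CPM (adjusted p = 0.000156 and 0.00212). Bcat1 was at 272 and 326 CPM in 129S1/SvImJ clones in 2iS, and Bcat2 stood at 65.8 and 63.8 CPM there. Bcat1 shares exon bases with Gm26666 and Bcat2 with 0610005C13Rik.

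Of 31 ribosomal protein genes tested, 4 were lower (Rpl21, Rps16, Rps18 and Rpl15) and 0 were higher in edgeR, beside 3.24% and 4.27% of all tested genes. At an unadjusted p under 0.05 in edgeR 6 were lower and 4 higher, beside 648 of all 3183 tested genes in either direction. DESeq2 gave 3 lower and 0 higher, beside 60 and 80 of all 3183. The median log2 fold change was 0.08. Rps18 (overlapping Vps52) was at 20.6 and 5.93 CPM in NOD/ShiLtJ and at 97.1 to 215 CPM in 129S1/SvImJ clones (adjusted p = 0.000191), and at 0 and 172 CPM in NOD/ShiLtJ and 129S1/SvImJ ESC. These genes have many processed copies in the genome, so their counts are uncertain, and Rpl15 also overlaps Nkiras1. Of opposite-strand partners, 5 pairs had both genes among those that differed, and the direction was the same in 5 of 5. How often all tested pairs shared a direction was not counted, so nothing about such partners as a group follows.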
